A study of Mus musculus with 28 samples.

Results

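The 9 genes described here belong to the aryl hydrocarbon receptor (AHR) pathway. They are the receptor Ahr, its partner Arnt, the repressor Ahrr, and 6 genes known as targets of the receptor, namely Cyp1a1, Cyp1b1, Tiparp, Aldh3a1, Ugt1a6a and Ugt1a7c. They were taken by symbol and are 9 of 54109 genes in a table of reprogramming cells and 9 of 54838 genes in a table of induced pluripotent stem cells (iPSC). The list was drawn up with earlier results of these data known; the genes were selected on pathway membership and on their measured levels in these libraries, and which comparison weighed in that choice is not recorded. The contrasts of culture with and without 3C may have weighed, since Ahr, Ahrr and both CYP1 genes differed most there, so values for them are given as a description, and a p only where a call was missed or not kept.

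AHR is a ligand-activated transcription factor of the bHLH-PAS family. Without ligand it rests in the cytoplasm with the chaperone HSP90. Ligands such as dioxins, plant indoles and tryptophan metabolites release it to the nucleus, where it pairs with ARNT on DNA holding the core GCGTG. Its best known targets encode enzymes that oxidise and conjugate foreign compounds, and 2 further targets, Ahrr and Tiparp, restrain the receptor.

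RNA was sequenced from mouse embryonic fibroblasts (MEF) undergoing reprogramming, in 4 groups of 3 libraries. All 12 libraries came from cells given doxycycline (DOX) at 1 µg/ml, which switches on the reprogramming factors; the other agents were 3C and UNC0638 (UNC), an inhibitor of the histone H3K9 methyltransferases EHMT1 and EHMT2. The groups were DOX alone (DOX), DOX with UNC at 1 µM (DOX UNC), DOX with 3C (DOX 3C), and DOX with both (DOX 3C UNC). 3C combines 250 nM of TGF-b RI Kinase Inhibitor II with the GSK3 inhibitor CHIR99021 (3 µM) and L-ascorbic acid (50 µg/ml), so the 3 agents cannot be told apart here. A second table held 6 iPSC libraries, 3 from reprogramming with DMSO and 3 with UNC at 1 µM for the first 48 h. Doses of DOX and of the 3C agents are not given for the iPSC. The MEF were heterozygous for Rosa26-rtTA and for Oct4-GFP. Some carried OKS, inducible and homozygous, and the others OKSM, which DOX induces, as a heterozygous allele; which library had which is not given. Cells grew on irradiated feeders, whose RNA may be part of each library. Neither the time of harvest of the 12 reprogramming libraries nor the origin of replicates in separate cultures or embryos is given, so p-values measure the spread between these libraries only.

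Reads in genes, in units of 1e+06, ran from 10.62 to 20.21 for reprogramming libraries and from 21.59 to 25.41 for iPSC libraries. Replicates differed by more than counting error (chi-square per degree of freedom 2.93 to 10.0 over 18 pairs). The 6 fibroblast markers were present in all 12 reprogramming libraries, with a summed level of 6602 to 7327 CPM (a gene's reads per 1e+06 reads) in DOX, 8259 to 8609 in DOX UNC, 2253 to 2711 in DOX 3C and 4015 to 4317 in DOX 3C UNC. With 3C only 2 of these fibroblast markers, Col1a1 and Col1a2, were called lower, without and with UNC. The other 4 were not called with 3C without UNC and were called higher with UNC, so the sum does not stand for each marker. Of the 6 pluripotency markers, Dppa5a was at 0 reads in all 12. Their sum, nearly all Pou5f1, a gene that the reprogramming alleles also encode, was 226 to 230 CPM in DOX, 208 to 222 in DOX UNC, 158 to 170 in DOX 3C and 109 to 119 in DOX 3C UNC. Pou5f1 was called lower with 3C without and with UNC, with UNC in 3C and in the interaction; its part in the results below was not tested. In the iPSC libraries all 6 pluripotency markers were present, at a summed 3353 to 3635 CPM. One library stood apart: DOX 3C replicate 1 held 170 CPM of 5 hepatocyte markers and 137 CPM of 6 erythroid markers, against at most 16.0 and 16.2 CPM in the other 11. Both fewer cells of a type and less RNA per cell can lower a level in such bulk RNA, and these cannot be told apart.

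The sequence before the start of the targets shows where the receptor's core letters lie. RefSeq promoters (build GRCm38.p6) were found for 7 of the 9 genes; Ahr and Aldh3a1 had no entry. The 250 bases before the start are printed 5′ to 3′ on the gene's strand, for the repressor and the 3 targets found to hold the core. Those of Arnt, Ugt1a6a and Ugt1a7c are not printed. Capitals mark GCGTG, or CACGC, which is GCGTG on the other strand.
Ahrr, chr13:74292332-74292581, minus strand: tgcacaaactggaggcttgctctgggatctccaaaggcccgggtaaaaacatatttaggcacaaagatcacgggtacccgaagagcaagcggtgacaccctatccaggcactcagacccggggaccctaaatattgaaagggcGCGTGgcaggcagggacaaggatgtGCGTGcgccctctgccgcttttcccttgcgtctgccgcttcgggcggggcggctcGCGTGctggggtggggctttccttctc
Cyp1a1, chr9:57697363-57697612, plus strand: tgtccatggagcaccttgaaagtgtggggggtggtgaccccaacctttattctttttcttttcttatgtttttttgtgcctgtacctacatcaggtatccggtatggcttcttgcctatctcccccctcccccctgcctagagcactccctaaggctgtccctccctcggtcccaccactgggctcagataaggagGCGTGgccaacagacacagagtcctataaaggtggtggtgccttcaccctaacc
Cyp1b1, chr17:79715062-79715311, minus strand: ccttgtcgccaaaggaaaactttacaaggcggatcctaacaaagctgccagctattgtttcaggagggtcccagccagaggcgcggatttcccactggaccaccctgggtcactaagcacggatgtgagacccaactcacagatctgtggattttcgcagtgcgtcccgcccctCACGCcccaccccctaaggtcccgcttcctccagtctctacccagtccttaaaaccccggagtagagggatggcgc
Tiparp, chr3:65528197-65528446, plus strand: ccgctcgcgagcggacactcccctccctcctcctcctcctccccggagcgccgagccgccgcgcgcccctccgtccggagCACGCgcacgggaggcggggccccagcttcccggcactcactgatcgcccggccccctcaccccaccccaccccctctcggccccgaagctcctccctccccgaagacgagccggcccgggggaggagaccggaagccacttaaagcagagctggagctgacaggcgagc

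Ahrr held 3 copies of the core, at 107, 82 and 27 bases before the start. Cyp1a1, Cyp1b1, Tiparp and Arnt held 1 each, and Ugt1a6a and Ugt1a7c none. The start used for Cyp1a1 lies inside the gene's annotated span, which begins at 57687928, so its window is not upstream of that span. Across 32851 promoters of this length 28.2% held at least 1 copy on either strand and 2.77% held 3 or more. The longer form TNGCGTG was found in 1 of the 7, Ahrr, and in 4.10% of all promoters. The core also occurs within the hypoxia response element, and a match of letters is not a site of binding. Enhancers further upstream, where the known response elements of Cyp1a1 lie, are outside this window.

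Values below are normalised reads, that is, the reads of a library divided by 1 factor per library as the authors deposited them. They may be compared between libraries for a gene but not between genes, because they are not divided by transcript length. Log2 fold changes are on the scale of the log2 of the value plus 1, with the standard error of a limma fit over all 16138 genes tested. All 9 genes passed the filter on low values (10 or more in at least 3 libraries). Cyp1a1, at 0 reads in every library without 3C, passed only through those with 3C. Its call with 3C is therefore a description only.

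With 3C the receptor, its repressor and both CYP1 genes were higher, in the absence and in the presence of UNC. Without UNC, 6 of the 9 genes were called higher (adjusted p below 0.05) and 2 lower, where 49.4% of all genes tested were called, 24.7% higher and 24.7% lower. With UNC, 7 were higher and 1 lower, where 47.4% of all genes were called, 23.9% higher and 23.5% lower. The median log2 fold change of the 9 was 1.38 without UNC and 1.86 with it, against 0.02 and 0.01 over all genes; setting Cyp1a1 to its lower bound leaves these medians unchanged. Since this contrast may have chosen the genes, nothing is read from these counts.

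**Figure D1:**
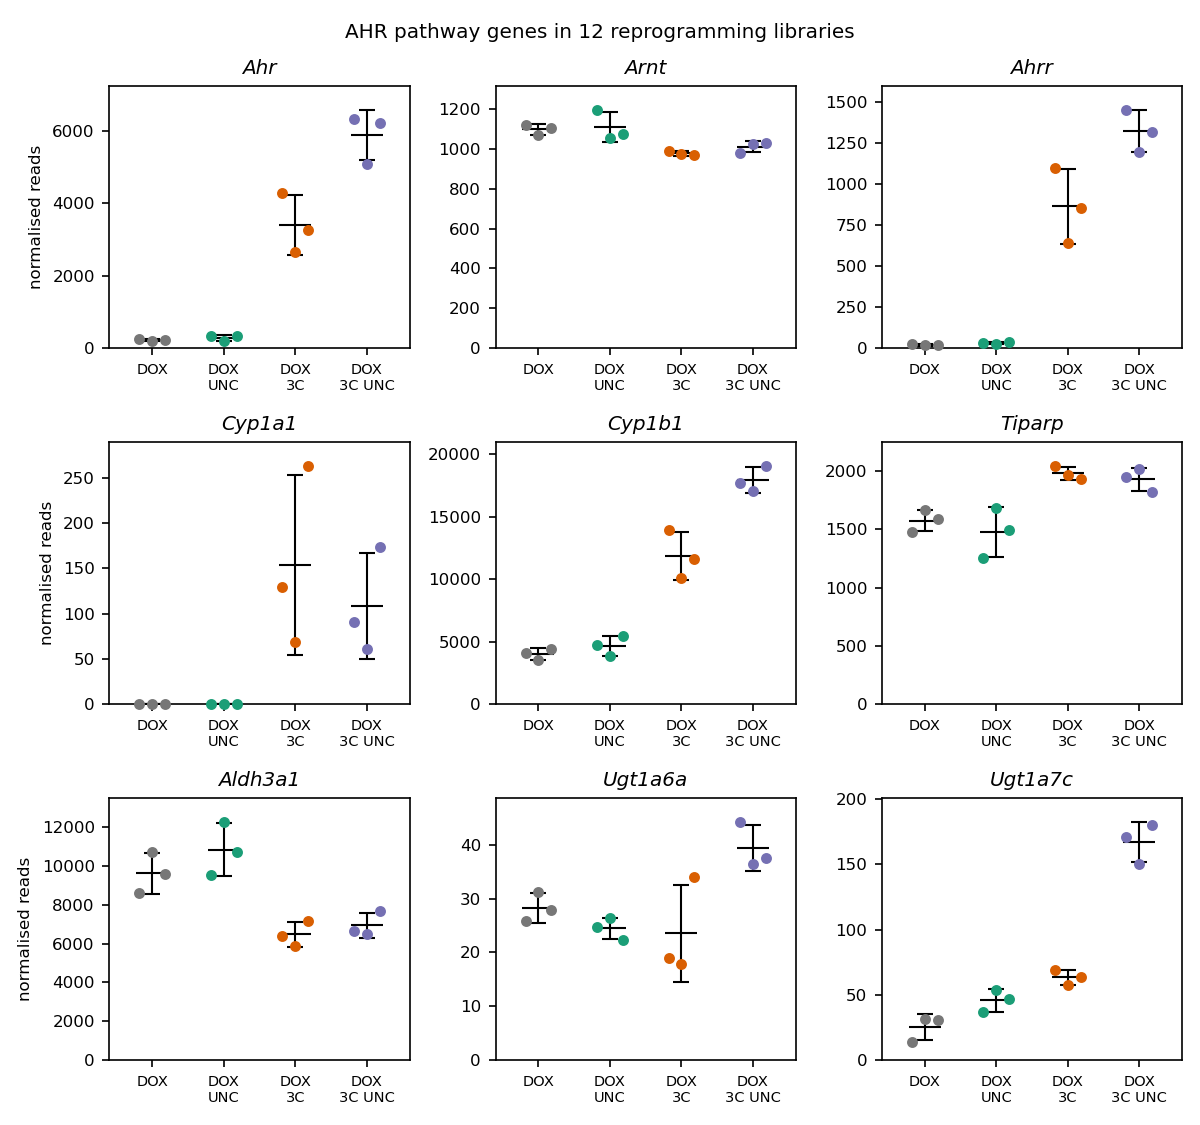
Normalised reads of the 9 AHR pathway genes (y axes, each starting at 0) in the 12 reprogramming libraries (x axes, 4 groups). Points are libraries, horizontal bars means and whiskers SD of 3 libraries. Ahr, Ahrr, Cyp1a1 and Cyp1b1 are higher in all 6 libraries with 3C than in all 6 without, and Aldh3a1 is lower.

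The receptor gene Ahr (ENSMUSG00000019256, mm10 chromosome 12, 35497979 to 35534989) was at 251, 192 and 225 normalised reads in DOX, from 205, 160 and 154 reads. It was at 319, 191 and 329 in DOX UNC. With 3C it was at 4279, 2663 and 3260, and with 3C and UNC at 6342, 5085 and 6231. No library without 3C exceeded 329 and none with 3C was under 2663. Group means were 223 ± 29.7, 280 ± 77.1, 3401 ± 817 and 5886 ± 696 (SD, n = 3). The 3C effect was 15.2-fold without UNC (log2 fold change 3.91 ± 0.18) and 21.1-fold with UNC (4.43 ± 0.18). The highest of the DOX 3C values was in replicate 1, the library with hepatocyte and erythroid markers, and without it the log2 fold change was 3.73 ± 0.18.

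Its DNA-binding partner Arnt (ENSMUSG00000015522, chromosome 3, 95434367 to 95497240) differed little between groups. It was at 1122, 1069 and 1104 in DOX, and at 1196, 1055 and 1075 in DOX UNC. In DOX 3C it was at 992, 975 and 968, and with 3C and UNC at 980, 1024 and 1029. All 6 libraries with 3C were below all 6 without it, by a log2 fold change of -0.17 ± 0.06 without UNC and -0.13 ± 0.06 with UNC. The first was called and the second was not (adjusted p = 0.0702 by limma). The first call was lost without DOX replicate 1 (adjusted p = 0.0761), DOX replicate 3 (0.0567), DOX 3C replicate 2 (0.0562) or DOX 3C replicate 3 (0.0629).

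The AHR repressor gene Ahrr (ENSMUSG00000021575, chromosome 13, 74211118 to 74292331) encodes a protein that competes with the receptor for ARNT and for DNA. Few reads of it were found without 3C: 20, 13 and 12 reads in DOX (24.5, 15.6 and 17.6 normalised) and 34, 23 and 40 in DOX UNC (29.0, 25.2 and 35.7). With 3C it was at 1097, 639 and 852, and with 3C and UNC at 1451, 1194 and 1318. Means went from 19.2 ± 4.68 to 863 ± 229 without UNC, a ratio of 44.9, and from 30.0 ± 5.31 to 1321 ± 129 with UNC, a ratio of 44.1. The log2 fold changes were 5.41 ± 0.18 and 5.42 ± 0.18, and without DOX 3C replicate 1 the first was 5.22 ± 0.19. Its promoter is the one with 3 cores printed above, and their part in this result was not tested.

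Tiparp (ENSMUSG00000034640, chromosome 3, 65528447 to 65555518), a mono-ADP-ribosyltransferase that modifies the receptor and limits its activity, differed far less. It was at 1480, 1663 and 1586 in DOX, and at 1258, 1680 and 1496 in DOX UNC. In DOX 3C it was at 2046, 1967 and 1934, and with 3C and UNC at 1951, 2018 and 1822. All 6 libraries with 3C were above all 6 without, at ratios of 1.26 without UNC (log2 fold change 0.33 ± 0.08) and 1.31 with UNC (0.39 ± 0.08). The annotation places 4931440P22Rik over the same span, and whether reads were counted by strand is not given.

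Cyp1a1 (ENSMUSG00000032315, chromosome 9, 57687928 to 57703824) encodes a cytochrome P450 that oxidises polycyclic aromatic compounds and is the usual readout of AHR activity. No read of it was found in any of the 6 libraries without 3C. With 3C it had 109, 93 and 341 reads (129, 68.9 and 263 normalised), and with 3C and UNC 78, 50 and 157 reads (90.9, 60.6 and 173). Means were 154 ± 99.5 and 108 ± 58.4, and replicate 3 was the highest of both groups. Against a floor of 3 reads over all DOX libraries (0.0829 CPM), the 10.4 CPM of the DOX 3C libraries were at least 125-fold higher. The 7.26 CPM of the DOX 3C UNC libraries were at least 122-fold higher than the floor of the DOX UNC libraries (0.0597 CPM); both bounds cover counting error only. The first bound was 73.9-fold without DOX 3C replicate 3, which held 341 of the 543 reads, 81.4-fold without DOX replicate 1 and 80.5-fold without DOX replicate 2. The second was 77.8-fold without DOX UNC replicate 1 and 78.6-fold without DOX UNC replicate 3. The library with hepatocyte markers, a cell type that can express Cyp1a1, held the middle value of DOX 3C.

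Cyp1b1 (ENSMUSG00000024087, chromosome 17, 79706940 to 79715061), a second P450 of the same family that acts on steroids and is known in mesenchymal cells, was well above 0 in every library. It was at 4065, 3510 and 4426 in DOX, and at 4748, 3804 and 5409 in DOX UNC. Levels with 3C were 13918, 10049 and 11595, and with 3C and UNC at 17678, 17016 and 19057. The ratio was 2.96 without UNC (log2 fold change 1.56 ± 0.12) and 3.85 with UNC (1.96 ± 0.12). Of the 6 fibroblast markers, 2 were called lower with 3C without UNC, the collagen genes Col1a1 and Col1a2, and 0 higher by limma. With UNC those 2 were lower and the other 4, Pdgfra, Pdgfrb, Thy1 and Twist2, were higher. Their part in the result was not tested.

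Aldh3a1 (ENSMUSG00000019102, chromosome 11, 61208510 to 61218418) encodes an aldehyde dehydrogenase that is induced through AHR in several tissues. It was lower with 3C. It was at 8601, 10714 and 9563 in DOX, and at 9539, 12275 and 10719 in DOX UNC. With 3C it was at 6400, 5855 and 7161, and with 3C and UNC at 6648, 6504 and 7684. Ratios were 0.672 without UNC (log2 fold change -0.57 ± 0.10) and 0.640 with UNC (-0.64 ± 0.10), and no library with 3C reached the lowest value without it.

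The UDP-glucuronosyltransferases Ugt1a6a and Ugt1a7c conjugate phenols. Both lie in the Ugt1a cluster on chromosome 1, where each gene has its own first exon and shares the others. Their spans (88134809 to 88220002 and 88095001 to 88220002) overlap those of 13 and 14 annotated genes, so how reads were divided among them is uncertain. Ugt1a7c (ENSMUSG00000090124) had 11, 26 and 21 reads in DOX (13.5, 31.2 and 30.7 normalised) and 43, 49 and 52 reads in DOX UNC (36.7, 53.7 and 46.4). With 3C it was at 68.8, 57.8 and 63.3 normalised reads, and with 3C and UNC at 171, 150 and 180. All libraries with both agents were above all others, and the 3C ratio was 2.52 without UNC (log2 fold change 1.38 ± 0.25) and 3.67 with UNC (1.86 ± 0.25).

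Ugt1a6a (ENSMUSG00000054545) had fewer than 50 reads in every library. Its reads were 21, 26 and 19 in DOX, 29, 24 and 25 in DOX UNC, 16, 24 and 44 in DOX 3C, and 38, 30 and 34 in DOX 3C UNC. Normalised means were 28.3 ± 2.76, 24.5 ± 2.01, 23.6 ± 9.02 and 39.4 ± 4.26. The log2 fold change with 3C was -0.31 ± 0.25 without UNC, which was not called. With UNC it was 0.66 ± 0.25 and was called (adjusted p = 0.0345 by limma), but the call was lost when any 1 of the 6 libraries was left out (adjusted p from 0.0508 to 0.105), with DESeq2 (0.102) and without the filter on low values (0.0883).

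**Figure D2:**
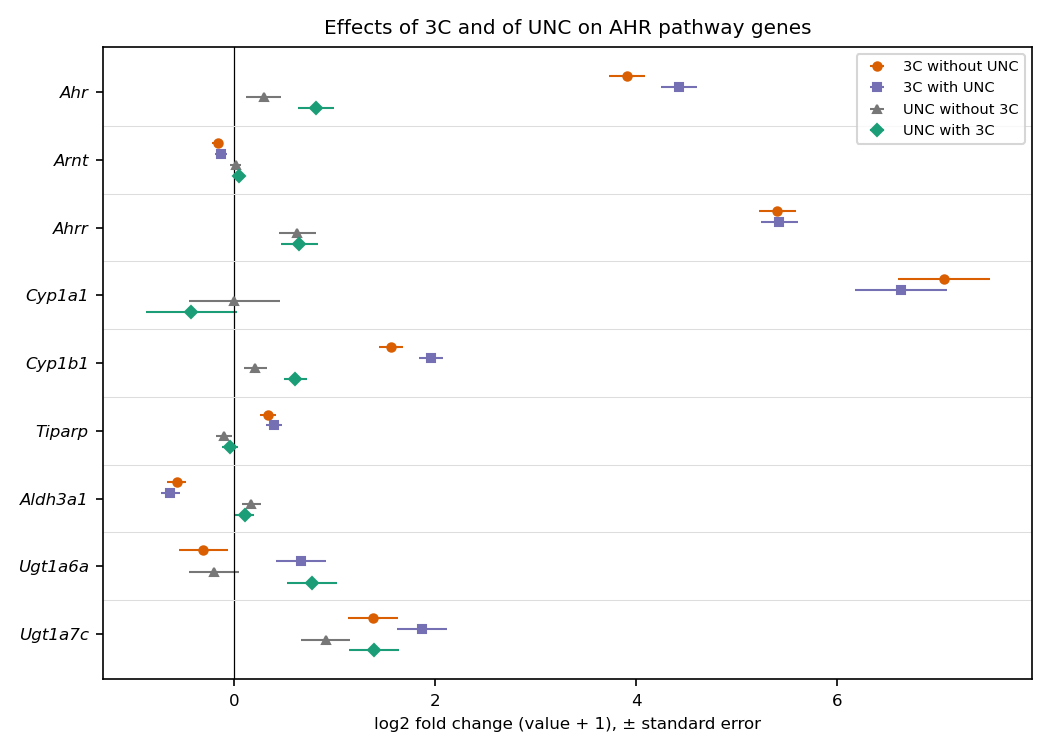
Log2 fold changes (x axis, value plus 1, ± standard error of the limma fit) of the 9 genes (y axis) for 3C without and with UNC and for UNC without and with 3C. The 3C effects on Ahr, Ahrr, Cyp1a1 and Cyp1b1 exceed their UNC effects; the position of Cyp1a1 depends on the pseudocount of 1, because it had 0 reads without 3C.

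UNC was compared with no UNC within each medium. Inhibition of the H3K9 methyltransferases was not itself examined here. In the presence of 3C, Ahr, Ahrr, Cyp1b1 and Ugt1a7c were called higher and none of the 9 lower, where 11.6% of all genes were called, 7.71% higher and 3.94% lower. Ahr had a log2 fold change of 0.81 ± 0.18 (ratio 1.73, adjusted p = 0.00603), and the 3 libraries with UNC were above the 3 without. Ugt1a7c was at 1.39 ± 0.25 (ratio 2.64, adjusted p = 0.00142) and Cyp1b1 at 0.61 ± 0.12 (ratio 1.51, adjusted p = 0.00244), each with no overlap of the groups. Without DOX 3C replicate 1 these values were 0.99 ± 0.18 for Ahr, 1.45 ± 0.28 for Ugt1a7c and 0.73 ± 0.12 for Cyp1b1. These p-values are from limma over all genes. The genes were chosen with results in view, so they are not independent support for a pathway effect. This comparison and that of 3C without UNC share the DOX 3C libraries.

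Ahrr was also called with UNC in 3C, at 0.64 ± 0.18 (ratio 1.53, adjusted p = 0.0302 by limma). That call was lost without DOX 3C replicate 2 (adjusted p = 0.181), DOX 3C replicate 3 (0.0714), DOX 3C UNC replicate 1 (0.112) or DOX 3C UNC replicate 3 (0.0890). Cyp1a1 was not called, at -0.43 ± 0.45 (adjusted p = 0.602), and its libraries overlapped. Ugt1a6a just missed, at 0.77 ± 0.25 (adjusted p = 0.0512). Arnt was at 0.05, Tiparp at -0.04 and Aldh3a1 at 0.10. The summed fibroblast markers were also higher with UNC in 3C, at 4015 to 4317 against 2253 to 2711 CPM, with 5 of the 6 called higher, and their part in these results was not tested.

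In DOX without 3C no gene of the 9 was called with UNC by limma, edgeR or DESeq2 in fits without replicate number as a block. Limma there called 0.607% of all genes, 0.508% higher and 0.0991% lower. At an unadjusted p below 0.05, which 1505 of all 16138 genes passed, 2 of the 9 did so, Ahrr and Ugt1a7c. Ugt1a7c had a log2 fold change of 0.91 ± 0.25 (ratio 1.81, adjusted p = 0.127 by limma), with all 3 UNC libraries above all 3 without. Ahrr was at 0.63 ± 0.18 (ratio 1.56, adjusted p = 0.170), likewise without overlap. The share of all genes whose groups separate was not counted, so nothing is read from the separation. Ahr was at 0.29 ± 0.18 (adjusted p = 0.670) and Cyp1b1 at 0.21 ± 0.12 (adjusted p = 0.622). Cyp1a1 had no read in either group and so could not be called. With replicate number as a block, limma called 2 of the 9, Ahrr (adjusted p = 0.00829) and Ugt1a7c (0.0283). The absence of a call therefore depends on the fit.

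The difference between the UNC effects with and without 3C was tested by the interaction term. No gene of the 9 was called by limma, edgeR or DESeq2 in fits without replicate number as a block. Limma there called 0.062% of all genes, 0.0434% higher and 0.0186% lower. At an unadjusted p below 0.05, which 1797 of all 16138 genes passed, 2 of the 9 did so. The 2 were Cyp1b1 (0.40 ± 0.17, adjusted p = 0.372) and Ugt1a6a (0.97 ± 0.35, adjusted p = 0.279). Ahr was at 0.52 ± 0.25 (adjusted p = 0.459), Ugt1a7c at 0.48 ± 0.35 (adjusted p = 0.658) and Ahrr at 0.02. In this fit, without the block, no UNC effect on these genes was therefore shown to differ between the media. With replicate number as a block, limma called Ahr (adjusted p = 0.0215) and Cyp1b1 (0.0292) for the interaction. Deviations from group means correlated at 0.0595 to 0.223 between same-numbered libraries and at -0.194 to -0.0103 between differently numbered ones. No label ties a number to a shared culture. Whether the UNC effects on Ahr and Cyp1b1 differ between the media therefore depends on the fit.

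**Figure D3:**
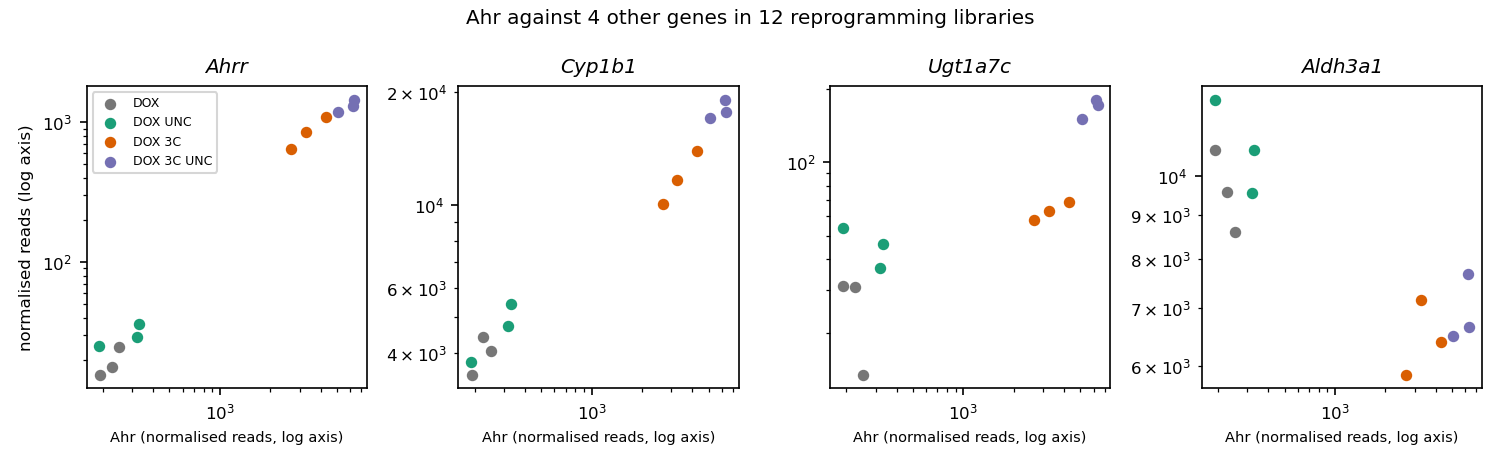
Normalised reads of Ahrr, Cyp1b1, Ugt1a7c and Aldh3a1 (y axes, log scale) against those of Ahr (x axes, log scale) in the 12 reprogramming libraries, coloured by group. The 6 libraries with 3C lie apart from the 6 without on the Ahr axis, at 2663 or more against 329 or less.

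The genes whose profile over the 12 libraries was most like that of Ahr by Pearson correlation were Fth1, a ferritin chain (r = 0.997), Ahrr (0.996), Nfkbia, an inhibitor of NF-kappa-B (0.996), Ier3 (0.996) and Tbl2 (0.996). For Cyp1b1 they were Zbtb38 (0.993), Tnfaip2 (0.991), Id3, an inhibitor of bHLH factors (0.991), Mrgprf (0.991) and Ahr itself (0.991). The libraries fall into a cluster with 3C and a cluster without, so no p is given. Within the 6 libraries with 3C, themselves of 2 groups, Ahr had an r of 0.982 with Ahrr, 0.987 with Cyp1b1, 0.933 with Ugt1a7c and -0.03 with Cyp1a1. There it was also 0.722 with Ugt1a6a, 0.631 with Arnt, 0.541 with Aldh3a1 and -0.304 with Tiparp. Within the 6 without 3C it was 0.776 with Ahrr, 0.909 with Cyp1b1, 0.601 with Arnt and 0.01 with Ugt1a7c. It was negative there with Tiparp (-0.829), Ugt1a6a (-0.825) and Aldh3a1 (-0.406). Spearman correlation named 0 of the same 5 genes for Ahr and 1 of 5, Id3, for Cyp1b1. Within DOX 3C the libraries ranked alike for Ahr, Ahrr, Cyp1b1 and Ugt1a7c, with replicate 1 highest and replicate 2 lowest, whereas Cyp1a1 was highest in replicate 3.

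A further 4 lists of pathway genes were drawn up by function and counted in the same fits. The shares called over all genes were 49.4% for 3C without UNC, 47.4% for 3C with UNC and 11.6% for UNC with 3C. Beside these shares the counts are a description, and no result about a list is read from them. Of 13 partners and chaperones of AHR, 5 were higher and 3 lower with 3C without UNC, and 6 and 3 with UNC. The chaperones Hsp90ab1 (0.47 ± 0.05) and Hsp90aa1 (0.49 ± 0.06) were higher without UNC, while the coactivator Ncoa2 (-0.30 ± 0.06) was lower. UNC with 3C raised 1, Arnt2 (247 ± 52.4 to 383 ± 94.4), a relative of Arnt, and lowered 1, Rb1 (1759 ± 56.7 to 1433 ± 220). Both calls were lost without DOX 3C replicate 2 (adjusted p = 0.106 and 0.0695 by limma), DOX 3C UNC replicate 1 (0.0639 and 0.0798) or DOX 3C UNC replicate 3 (0.132 and 0.0815), and that of Arnt2 also without DOX 3C replicate 1 (0.0782). UNC without 3C called 0 of the 13 by limma, edgeR or DESeq2, with 3 at an unadjusted p below 0.05. Over all genes tested, 1505 of 16138 were below that p.

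Of 16 other genes of the AHR battery, 7 passed the filter, and the other 9, Cyp1a2 among them, had at most 6 reads in a library, 4 of them none. With 3C, 5 were higher and 2 lower, both without and with UNC, where 49.4% and 47.4% of all genes were called. Xdh, xanthine dehydrogenase, which oxidises purines, was at 20.1 ± 2.39 in DOX, 19.7 ± 1.74 in DOX UNC, 302 ± 22.3 in DOX 3C and 713 ± 90.3 in DOX 3C UNC. Nqo1, a quinone reductase, was at 654 ± 92.4, 660 ± 81.6, 2216 ± 343 and 2488 ± 221, and Nfe2l2, the oxidative stress factor that also drives Nqo1, at 2454 ± 35.5, 2408 ± 93.2, 4899 ± 255 and 5379 ± 91.0. Cyp2s1, a further P450, went the other way, at 47.8 ± 5.36, 40.3 ± 9.07, 7.58 ± 2.13 and 12.7 ± 1.45. The remaining 3 tested were Il6 and Aldh3b1, which were higher with 3C, and Ereg, which was lower. Il6, at means of 2.60 in DOX and 3.88 in DOX UNC, passed the filter through the libraries with 3C.

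UNC with 3C raised 2 of these 7, Xdh (1.23 ± 0.14, adjusted p = 1.95e-05 by limma) and Aldh3b1, an aldehyde dehydrogenase (0.80 ± 0.19, adjusted p = 0.00993), and lowered 0. Over all genes limma called 11.6%. On the recovered reads edgeR called 3 of the 7 and DESeq2 3. At an unadjusted p below 0.05 by limma were 6 of the 7, and 4152 of all 16138 genes. The call of Aldh3b1 was lost without DOX 3C replicate 2 (adjusted p = 0.0674) or DOX 3C UNC replicate 3 (0.0600). UNC without 3C called 0 of the 7 by limma, edgeR or DESeq2, and 0 had an unadjusted p below 0.05, with Xdh at -0.02 ± 0.14. For that comparison limma called 0.607% of all genes, and 1505 of 16138 had an unadjusted p below 0.05. For Xdh the difference between the UNC effects was called (interaction 1.26 ± 0.20, adjusted p = 0.0197 by limma). It was also called by DESeq2 (0.0134) but not by edgeR (0.0766). The limma call was lost without DOX replicate 2 (adjusted p = 0.0597), DOX 3C replicate 2 (0.0795), DOX 3C replicate 3 (0.0593) or DOX 3C UNC replicate 3 (0.0601), at differences of 1.17 to 1.28.

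**Figure D4:**
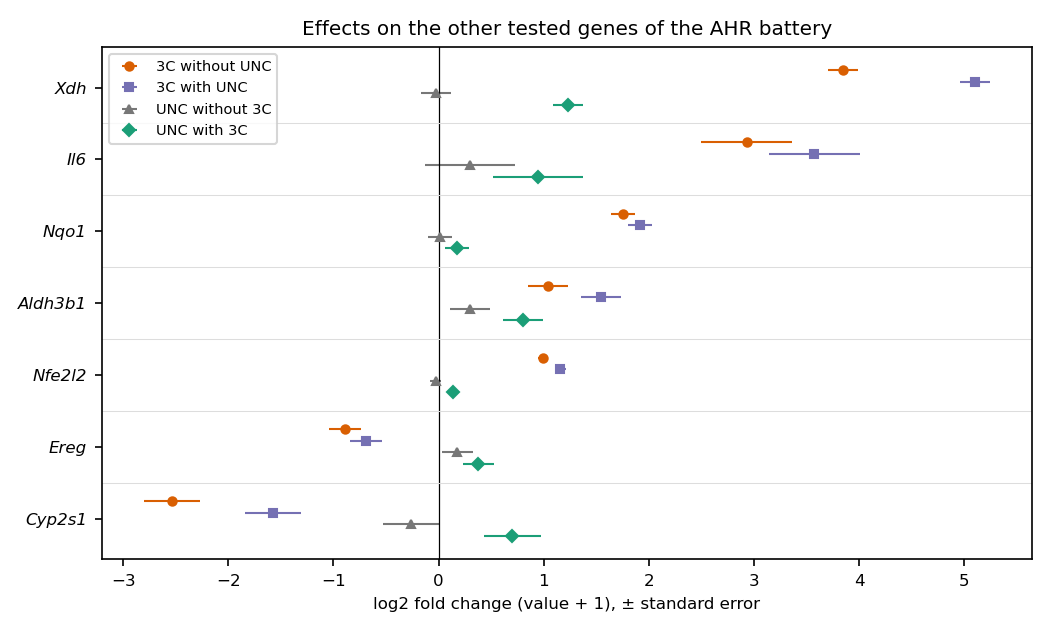
Log2 fold changes (x axis, value plus 1, ± standard error) of the 7 tested genes among 16 other AHR battery genes (y axis) for 3C without and with UNC and for UNC without and with 3C. Xdh has the largest 3C effects of the 7 and a UNC effect of 1.23 with 3C and -0.02 without.

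Enzymes that make AHR ligands from tryptophan were mostly near 0. Of 9 such genes 6, including Ido1, Ido2, Tdo2 and Kynu, had at most 7 reads in a library and were not tested. Kyat1 (90.3 ± 14.5 to 152 ± 11.4) and Kyat3 (202 ± 22.5 to 367 ± 6.25), aminotransferases that act on kynurenine, were higher with 3C without UNC, and these 2 of the 3 tested were also higher with UNC. Over all genes 49.4% and 47.4% were called in those comparisons. UNC called 0 of the 3 in either medium by limma, edgeR or DESeq2, and 0 had an unadjusted p below 0.05. Limma called 0.607% of all genes for UNC without 3C and 11.6% with 3C. With 3 genes tested, nothing is read from these counts.

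Of 12 relatives of AHR and other genes whose proteins pair with ARNT, 10 were tested. With 3C 2 were higher and 3 lower without UNC, and 4 and 3 with UNC, where 49.4% and 47.4% of all genes were called. Epas1, the hypoxia-inducible factor HIF-2α, was at 653 ± 81.2 in DOX and 93.6 ± 13.3 in DOX 3C. The neuronal PAS factor gene Npas3 was lower as well (52.1 ± 7.99 to 20.0 ± 4.64), while the circadian genes Arntl2 (209 ± 41.1 to 627 ± 99.0) and Clock (2322 ± 40.7 to 3159 ± 85.7) were higher. UNC with 3C raised 2, Hif1a (3568 ± 222 to 4304 ± 252) and Epas1 (93.6 ± 13.3 to 144 ± 35.9), where 11.6% of all genes were called. The call of Hif1a was lost without DOX 3C replicate 3 (adjusted p = 0.0594 by limma). That of Epas1 was lost without DOX 3C replicate 3 (0.0626), DOX 3C UNC replicate 2 (0.0548) or DOX 3C UNC replicate 3 (0.0937), and with only the 6 libraries compared (0.0566). UNC without 3C called 0 of the 10 by limma, edgeR or DESeq2, with 1 at an unadjusted p below 0.05. Over all genes tested, 1505 of 16138 were below that p.

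In iPSC only Cyp1b1 was called among the 7 AHR pathway genes tested, where 1.31% of all genes were called, 1.27% higher and 0.0389% lower. The levels are CPM, from a table counted apart from the reprogramming libraries, so the sets of values are not compared by a test. Cyp1b1 had 461, 539 and 385 reads after DMSO and 879, 950 and 800 after UNC, or 19.4, 21.2 and 16.0 against 35.7, 38.5 and 37.1 CPM. The log2 fold change was 0.98 ± 0.10 (adjusted p = 0.00216 by edgeR's quasi-likelihood test), with all UNC libraries above all DMSO libraries. Summed fibroblast markers were higher in the same libraries, at 2230 to 2250 CPM after UNC against 1226 to 1552 after DMSO, with 4 of the 6 called higher. Their part in the result was not tested.

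**Figure D5:**
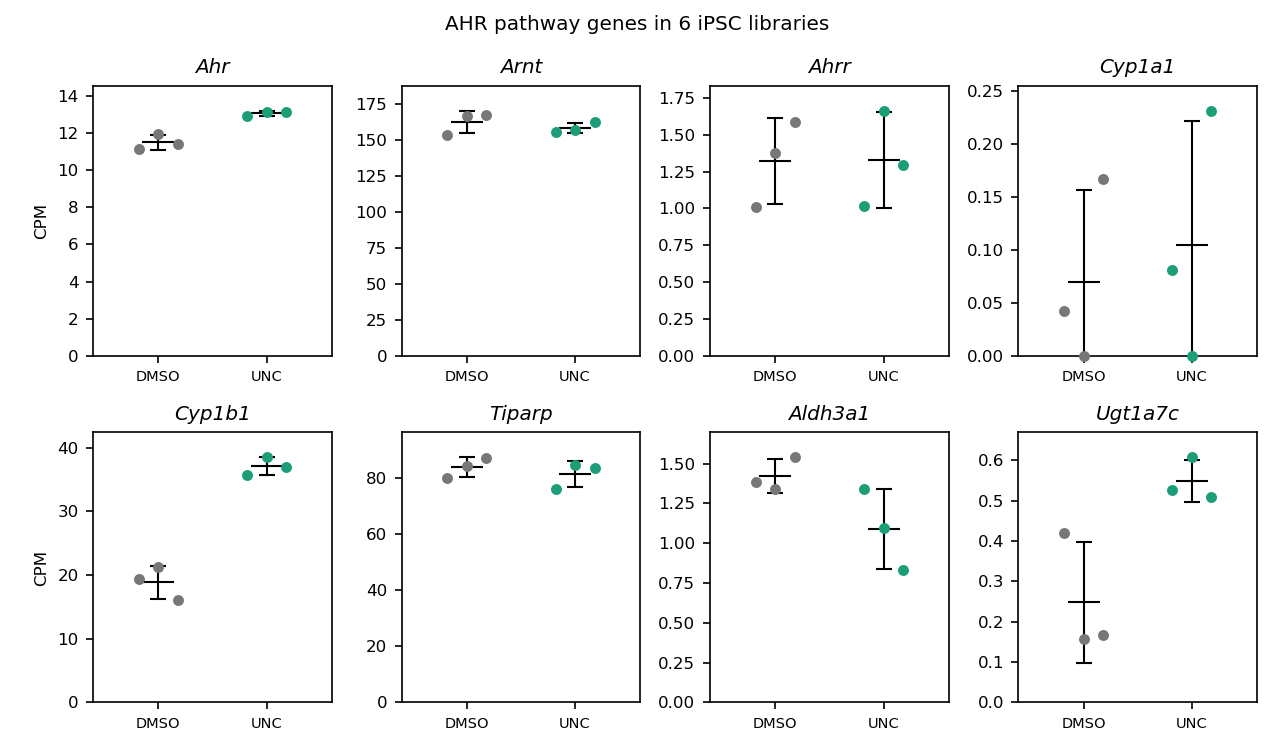
CPM of 8 AHR pathway genes (y axes, each starting at 0) in the 3 DMSO and 3 UNC iPSC libraries (x axes); points are libraries, bars means and whiskers SD. Cyp1b1 lies at 35.7 to 38.5 CPM after UNC and 16.0 to 21.2 after DMSO; Ugt1a6a, with 1 read in all, is left out.

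Ahr itself had 265, 303 and 274 reads in the DMSO iPSC and 318, 324 and 284 in the UNC iPSC, or 11.5 ± 0.401 and 13.1 ± 0.136 CPM. Its UNC libraries all lay above its DMSO libraries in CPM, but the difference was not called (0.19 ± 0.09, adjusted p = 0.409 by edgeR). How many of all genes separate in this way was not counted. Ahrr was at 24, 35 and 38 reads against 25, 41 and 28. Cyp1a1 had 1, 0 and 4 reads against 2, 0 and 5, and Ugt1a6a 0, 0 and 0 against 1, 0 and 0; neither was tested. Ugt1a7c had 10, 4 and 4 reads after DMSO and 13, 15 and 11 after UNC (1.15 ± 0.44, adjusted p = 0.333). Aldh3a1, at 621 CPM over the DOX libraries, had 33, 34 and 37 reads after DMSO and 33, 27 and 18 after UNC in iPSC. Arnt was at 163 and 158 CPM and Tiparp at 83.7 and 81.2 CPM after DMSO and UNC. None of the 4 further lists had a gene called in iPSC by edgeR or DESeq2. Of the genes tested, 1 of 13 partners, 3 of 6 battery genes, 0 of 4 ligand makers and 0 of 10 relatives had an unadjusted p below 0.05. Over all genes tested in iPSC, 2207 of 17987 were below that p.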

How the data were processed

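Of 28 samples, the 18 RNA libraries were analysed; the 10 H3K9me2 samples were not analysed here. The submitters' processing notes name the build mm10 and the tools HTSeq 0.5.4p3, TopHat2 2.1.0, DESeq (no version given) and SAMtools 1.8. The deposited reprogramming table holds signal, that is, counts which the authors had divided by 1 factor per library; every value was a whole multiple of a library's step within 0.01 read, so 100% of reads were recovered whole. The deposited iPSC table holds raw counts. Of the reprogramming columns, 2 that belong to none of the samples listed were left out. Symbols were matched for 54042 of 54109 and 54723 of 54838 identifiers.

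The log2 of the signal plus 1 was fitted with limma 3.58.1 (trend) in R 4.3.3, with 12 libraries in 1 fit and genes at 10 or more in at least 3 libraries. iPSC counts were fitted with edgeR 4.0.16 (quasi-likelihood, TMM). P-values were adjusted by Benjamini-Hochberg over all genes tested, and called below 0.05. Alternatives were edgeR and DESeq2 1.42.0 on the recovered reads, other pseudocounts and filters, the replicate block, and leaving out each library. Scripts were tested on simulated data. The members and the 4 further lists were chosen with earlier results of these data known. All 9 members are named, up to 4 called genes per further list by smallest p, and the 5 genes most like Ahr and Cyp1b1; Il6, Aldh3b1 and Ereg were named as the rest of those tested. One gene of the further lists is not reported here.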

Additional observations from a re-analysis of the deposited data

Results flagged for a closer look

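Xdh, among the other genes of the AHR battery, had a UNC effect that differed between the media. The difference was 1.26 ± 0.20 on the log2 scale (limma interaction term, adjusted p = 0.0197 over all genes), from -0.02 ± 0.14 without 3C and 1.23 ± 0.14 with 3C. In normalised reads the DOX 3C UNC libraries held 813, 638 and 688 and the DOX 3C libraries 324, 279 and 302. On the recovered reads the call was made by DESeq2 (1.29, adjusted p = 0.0134) and not by edgeR (1.29, adjusted p = 0.0766). It was kept with a pseudocount of 0.5 (adjusted p = 0.0212) or 5 (0.0103), without the filter on low values (0.0247) and when any 1 of 8 libraries was left out, and lost without any 1 of the other 4.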

How the results depend on the processing

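Of 21 calls among the 9 genes, 18 were kept under every alternative run and 3 were lost under at least 1: Arnt for 3C without UNC, Ugt1a6a for 3C with UNC and Ahrr for UNC with 3C. Of 35 called results named from the further lists, computed under the same alternatives after the data were seen, 6 lost a call under at least 1 and none changed direction. The cause was not tested.

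The number of genes called for UNC without 3C went from 98 to 170 with DESeq2 and 409 with the replicate block, and from 1880 to 2871 with the block for UNC with 3C. For the interaction it went from 10 to 155 with DESeq2, 29 with a pseudocount of 5 and 413 with the block. In iPSC it went from 236 to 370 with DESeq2, 823 with no filter on low counts and 407 with the block. With the replicate block 2 of the 9 genes were called for UNC without 3C, Ahrr (adjusted p = 0.00829 by limma) and Ugt1a7c (0.0283), and 2 for the interaction, Ahr (0.0215) and Cyp1b1 (0.0292); Ugt1a6a was called for UNC with 3C (0.0377). Same-numbered reprogramming libraries had correlated deviations from their group means (0.0595 to 0.223, above 0.1 in 15 of 18 pairs), and 12 of 12 libraries correlated best with their own number. The 36 differently numbered pairs ran from -0.194 to -0.0103. In iPSC same-numbered pairs ran from 0.0491 to 0.109 and differently numbered ones from -0.128 to 0.0937. There 4 of 6 libraries correlated best with their own number. No label ties a number to a shared culture, so the block was kept as an alternative and not as the main fit. Which of the 9 genes are called for UNC depends on this choice.

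Leaving out 1 library gave 19 to 144 genes called for UNC without 3C, lowest without DOX UNC replicate 3, and under 98 divided by 1.5 also without DOX replicate 1 (25), DOX replicate 3 (48) or DOX UNC replicate 2 (34). It gave 1039 to 1917 for UNC with 3C, low without DOX 3C replicate 2 (1039) or DOX 3C UNC replicate 3 (1137). The interaction ranged from 0 without DOX replicate 2 to 70 without DOX 3C replicate 1, and only without DOX replicate 3, DOX UNC replicate 3 or DOX 3C replicate 3 did it stay within 1.5 times. In iPSC the range was 85 to 216, low without UNC replicate 1 (85), UNC replicate 2 (111) or DMSO replicate 1 (156).

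Direction changed only in results not called. The Ahrr interaction was at -0.0107 with edgeR and -0.019 with DESeq2, and -0.18 to 0.21 when 1 library was left out. The other ranges on leaving out 1 library were -0.90 to 0.062 for Cyp1a1 (UNC with 3C and interaction), -0.043 to 0.047 for Arnt and -0.20 to 0.0099 for Tiparp (UNC without 3C), and -0.072 to 0.0019 for Tiparp (UNC with 3C). For the interaction they were -0.049 to 0.16 for Tiparp and -0.16 to 0.026 for Aldh3a1, and in iPSC -0.19 to 0.18 for Ahrr and -0.058 to 0.014 for Tiparp. Few reads limit Ugt1a6a and Ugt1a7c, and Cyp1a1 and Ugt1a6a in iPSC.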
